A study of Rattus norvegicus with 10 samples.

Results

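The heat shock chaperones described here are 10 genes listed by name: the transcription factor gene Hsf1 and Hspa8, Hspa4, Hsph1, Dnajb1, Bag3, Hsp90aa1, Hspb1, Hspd1 and Hspe1. Their probe sets, the groups of short oligonucleotides that read 1 transcript on the array, were found by gene symbol in the platform annotation. Of the 10 genes, 8 had a probe set of their own, with 10 probe sets in all, out of 14217 genes and 31042 probe sets measured. Hspa8 and Hsp90aa1 had none, because the 3 probe sets that name them name a further gene as well. Those 3 probe sets are given as shared and are not counted among the members. The arrays carried liver RNA of Harlan Sprague Dawley rats, 1 animal to an array. For 13 weeks 5 rats ate feed with HMB (2-hydroxy-4-methoxybenzophenone, an ultraviolet filter also called oxybenzone) at 10000 ppm, and 5 control rats ate feed at 0 ppm. Both groups ate the same base diet, and no sex or age was used here. The dose label of HMB 1 read 0 ppm against its title and chemical label, and the animal was kept in the HMB group. Animals are numbered in the order of deposition.

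Heat shock proteins hold, refold or hand on other proteins that have lost their shape. Hsf1 is held inactive by chaperones in unstressed cells. When misfolded proteins draw the chaperones away, it forms trimers and binds heat shock elements, alternating repeats of the unit GAA and its complement TTC, in the promoters of chaperone genes. Hepatocytes, which make most plasma proteins and metabolise foreign compounds, express cytosolic and mitochondrial chaperones at all times. In bulk liver RNA, a change in the share of a cell type and a change in RNA per cell cannot be told apart.

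The letters of heat shock elements stood before the start site of 7 of the 8 members that the RefSeq promoter table (build GRCr8) held. The table was searched over the 250 bases before each start for inverted pairs of units, GAANNTTC or TTCNNGAA, and for 3 units in a row, GAANNTTCNNGAA or TTCNNGAANNTTC, which hold such pairs. Each inverted pair is its own reverse complement and the 3-unit forms are each other's, so both strands were covered. Inverted pairs occurred in 13.5% of all 33469 promoters of that length, and 3 units in a row in 0.663%. Among the members, 4 had 3 units in a row, namely Hspa8, Hsph1, Hspd1 and Hspe1, while Dnajb1, Bag3 and Hspb1 had pairs only and Hspa4 had no match. Hsf1 and Hsp90aa1 were not in the table. A match is a description of letters and not a bound site.

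The promoters of Hsph1, an Hsp110 that exchanges nucleotide on Hsp70, of Hspa8, the constitutive Hsp70 of the cytosol, of Hspe1, the mitochondrial Hsp10, and of Dnajb1, the Hsp40 that delivers substrates to Hsp70, are printed 5′ to 3′ in the direction of the gene, because their transcripts are followed below. Capitals mark the matches, and each sequence ends 1 base before the start site. They lie at chr12:10427118-10427367 on the plus strand, chr8:50080264-50080513 on the plus strand, chr9:64084077-64084326 on the plus strand and chr19:41431142-41431391 on the minus strand.
Hsph1: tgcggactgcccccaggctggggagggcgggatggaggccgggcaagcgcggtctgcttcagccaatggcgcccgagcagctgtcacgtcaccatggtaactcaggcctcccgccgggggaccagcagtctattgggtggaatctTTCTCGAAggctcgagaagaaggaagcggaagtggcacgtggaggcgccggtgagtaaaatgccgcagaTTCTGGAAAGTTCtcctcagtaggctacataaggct
Hspa8: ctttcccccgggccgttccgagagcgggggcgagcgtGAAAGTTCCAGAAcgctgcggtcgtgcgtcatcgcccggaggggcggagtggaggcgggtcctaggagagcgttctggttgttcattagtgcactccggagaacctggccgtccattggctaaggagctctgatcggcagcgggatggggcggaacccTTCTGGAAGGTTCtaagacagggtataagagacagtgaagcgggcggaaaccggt
Hspe1: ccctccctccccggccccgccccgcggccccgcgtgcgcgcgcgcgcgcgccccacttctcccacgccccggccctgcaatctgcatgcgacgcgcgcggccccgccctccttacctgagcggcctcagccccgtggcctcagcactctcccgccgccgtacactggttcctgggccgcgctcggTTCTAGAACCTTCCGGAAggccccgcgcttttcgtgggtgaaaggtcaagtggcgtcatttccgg
Dnajb1: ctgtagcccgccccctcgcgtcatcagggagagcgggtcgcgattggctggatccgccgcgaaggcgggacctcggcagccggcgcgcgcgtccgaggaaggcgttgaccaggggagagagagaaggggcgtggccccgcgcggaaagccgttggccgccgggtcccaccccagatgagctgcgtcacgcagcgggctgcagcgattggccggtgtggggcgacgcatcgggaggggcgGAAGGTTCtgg
Hsph1 has TTCTGGAAAGTTC beginning 36 bases before its start, and Hspa8 has TTCTGGAAGGTTC beginning 55 bases before its start. The element of Hspe1, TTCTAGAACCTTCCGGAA, is shared with Hspd1, the mitochondrial Hsp60. The starts of Hspd1 and Hspe1 lie 290 bases apart on chromosome 9 in opposite directions, and the run begins 65 bases before the start of Hspe1 and, read from the other strand, 242 bases before that of Hspd1. The single pair of Dnajb1, GAAGGTTC, begins 11 bases before the start. Bag3, an Hsp70 partner in selective autophagy, has GAAGTTTC beginning 132 bases before its start. Hspb1, the small heat shock protein Hsp27, has GAAGTTTC at 129 and GAACCTTC at 109 bases.

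**Figure D1:**
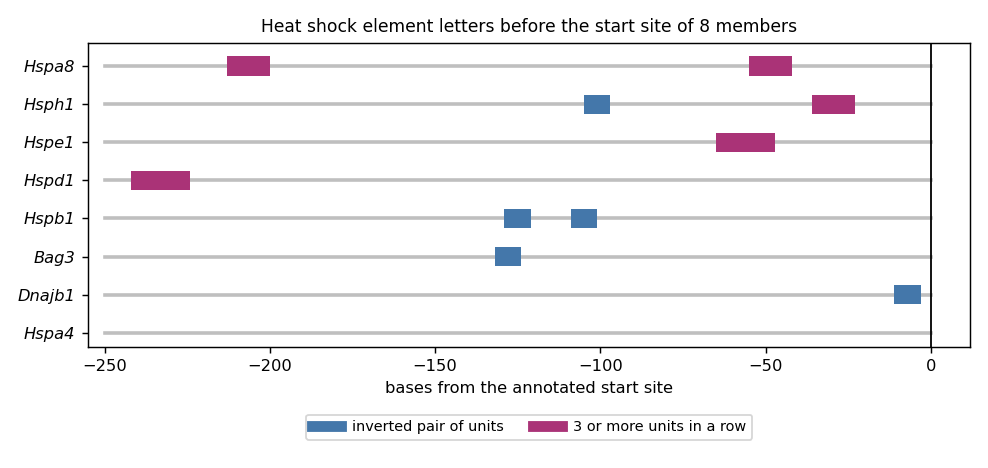
Positions of heat shock element letters in the 250 bases before the annotated start site of the 8 members in the promoter table. The x axis gives bases from the start site, blue bars are inverted pairs of units and purple bars hold 3 or more units in a row, as in Hspa8, Hsph1, Hspd1 and Hspe1.

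The comparison asked whether these chaperone transcripts differed in the liver of HMB and control rats. P-values treat the rats as independent, though rats were kept 5 to a cage. None of the 10 member probe sets passed the test (limma, Benjamini-Hochberg adjusted p from 0.206 to 0.885), where 1.70% of all probe sets did. That share was not stable: it was 0.00% without control 2, 4 or 5 or HMB 4, 5.33% without control 1 and 0.403% after cyclic loess. At an unadjusted p under 0.05 stood 1 of the 10, a dimmer probe set of Hsph1, where 24.1% of all probe sets did, and by the exact permutation test of single probe sets 0 of 10 were under 0.05. The HMB mean was below the control mean in 10 of 10 member probe sets, and after cyclic loess normalization in 8 of 10, with Hspa4 at 0.01 and Hspb1 at 0.06 on the log2 scale. Of all probe sets, 47.6% had a lower mean in HMB, and of those with a mean level above the median, where all 10 lie, 68.7% did. The median log2 difference was -0.23 over the 10 probe sets, which count Hsph1 and Dnajb1 once for each of their probe sets, and -0.16 over the 8 genes by their brightest, against -0.09 in all probe sets above the median level. Over the 10 it was -0.12 after cyclic loess, -0.15 without HMB 4 and -0.12 without HMB 3 to 5. Tested on simulated data for this comparison with 31042 probe sets, the fit recovered 42% of differences of 0.5 and 96% of differences of 1 on the log2 scale. A difference near 0.5 could therefore have been missed. The shifted probe sets were drawn at random from all of them. The within-group SD of the brightest probe sets of Dnajb1, Bag3, Hspb1 and Hsph1 exceeded that of 93.4% to 98.2% of probe sets. In these genes a larger difference could also have been missed.

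**Figure D2:**
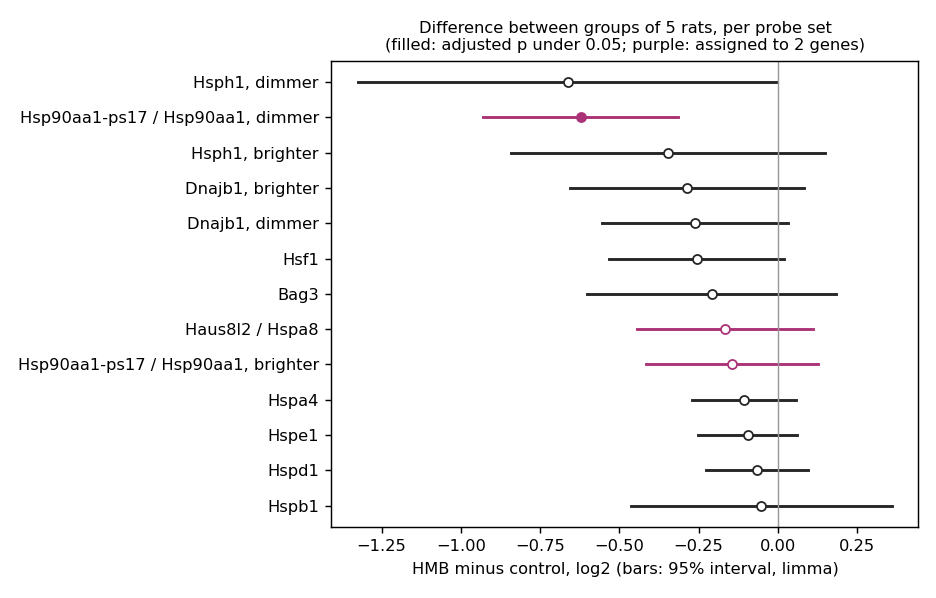
HMB minus control on the log2 scale for the 10 member probe sets (black) and the 3 probe sets shared with another gene (purple), with 95% intervals from limma, 5 rats per group. The filled point is the single probe set with an adjusted p under 0.05, the dimmer of those assigned to Hsp90aa1 and Hsp90aa1-ps17.

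Hsf1, the regulator, had log2 signals of 5.73, 6.23, 6.45, 6.05 and 6.17 in controls 1 to 5 and of 6.04, 5.59, 5.97, 5.91 and 5.83 in HMB 1 to 5. The ranges overlapped, with all 5 HMB rats below the control median and 1 below the lowest control. The difference was -0.26 ± 0.13 (SE over 5 rats in each group, adjusted p in limma = 0.236), with a 95% interval from -0.53 to 0.02.

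The Hsp70 machine has a substrate-binding Hsp70, J-domain proteins that load it, and exchange factors that release its substrate. Hsph1, read by its brightest probe set, had log2 signals of 8.50, 9.41, 9.06, 8.36 and 9.16 in controls 1 to 5 and of 8.53, 8.80, 9.11, 7.97 and 8.33 in HMB 1 to 5. Controls 2, 3 and 5 and HMB 3 were high, and HMB 4 was the lowest of all. The difference of -0.35 ± 0.23 (SE over 5 rats in each group, adjusted p in limma = 0.365) lay within a pooled within-group SD of 0.44, larger than that of 98.2% of probe sets. It was -0.22 without control 2 and -0.20 without HMB 4. Its dimmer probe set read 6.12, 7.25, 6.75, 6.07 and 6.98 in controls and 6.50, 6.64, 6.18, 5.23 and 5.29 in HMB, with HMB 4 and 5 alone below every control. There the difference was -0.66 ± 0.31 (adjusted p = 0.206), with a 95% interval from -1.32 to -0.002.

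Dnajb1 had log2 signals of 8.31, 8.89, 8.65, 8.47 and 8.77 in controls 1 to 5 and of 8.40, 7.93, 8.95, 8.15 and 8.22 in HMB 1 to 5. HMB 3 was above every control and HMB 2, 4 and 5 were below every control, so that the HMB rats spanned the control range on both sides. The difference was -0.29 ± 0.17 (SE over 5 rats in each group, adjusted p in limma = 0.315), and its dimmer probe set gave -0.26 ± 0.14 (adjusted p = 0.251). For the brighter one it was -0.19 without HMB 2, -0.44 without HMB 3 and -0.18 after cyclic loess. Bag3, whose BAG domain drives nucleotide exchange on Hsp70, was at 7.77, 8.69, 8.72, 8.23 and 8.75 in controls and at 8.45, 8.18, 8.34, 7.84 and 8.29 in HMB. Control 1 was the lowest of all 10 rats for Bag3, and the HMB rats lay inside the control range. The Bag3 difference was -0.21 ± 0.18 (adjusted p = 0.492). It was -0.37 without control 1, between -0.14 and -0.11 without control 3, control 5 or HMB 4, and -0.10 after cyclic loess.

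Hspa4, a further Hsp110 family member, varied little, from 7.70 to 7.92 in controls with a median of 7.77, and from 7.59 to 7.82 in HMB. In HMB, 4 of 5 rats were below the lowest control and HMB 1, at 7.82, was not. The difference was -0.11 ± 0.08 (SE over 5 rats in each group, adjusted p in limma = 0.402), the interval from -0.27 to 0.06. Its within-group SD of 0.0832 exceeded that of 5.37% of probe sets, which sets it apart in spread from Hsph1, though both genes encode Hsp110 proteins.

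Hspb1, which binds unfolding proteins without ATP, had log2 signals of 7.74, 8.13, 7.35, 8.42 and 7.75 in controls 1 to 5 and of 7.40, 7.73, 7.88, 7.87 and 8.24 in HMB 1 to 5. The groups covered the same range, and the high and low rats were only in part those of Hsph1. Control 4, the lowest control for Hsph1, was the highest for Hspb1, while control 2, the highest for Hsph1, was also high at 8.13. The difference was -0.05 ± 0.19 (SE over 5 rats in each group, adjusted p in limma = 0.885).

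Hspd1 and Hspe1 encode the barrel and the lid of the mitochondrial folding chamber. Hspd1 had log2 signals of 12.04, 12.09, 12.07, 11.99 and 12.08 in controls 1 to 5 and of 12.05, 12.12, 11.92, 11.86 and 11.99 in HMB 1 to 5. Hspe1 was at 12.19, 12.03, 12.13, 12.15 and 12.02 in controls and at 11.98, 11.99, 12.12, 11.96 and 12.00 in HMB. For Hspe1, 4 HMB rats were below the lowest control and HMB 3 was not. For Hspd1, HMB 3, 4 and 5 were below every control. The differences were -0.07 ± 0.07 for Hspd1 (SE over 5 rats in each group, adjusted p in limma = 0.603) and -0.10 ± 0.07 for Hspe1 (adjusted p = 0.426). Their 95% intervals ran from -0.23 to 0.09 and from -0.25 to 0.06.

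**Figure D3:**
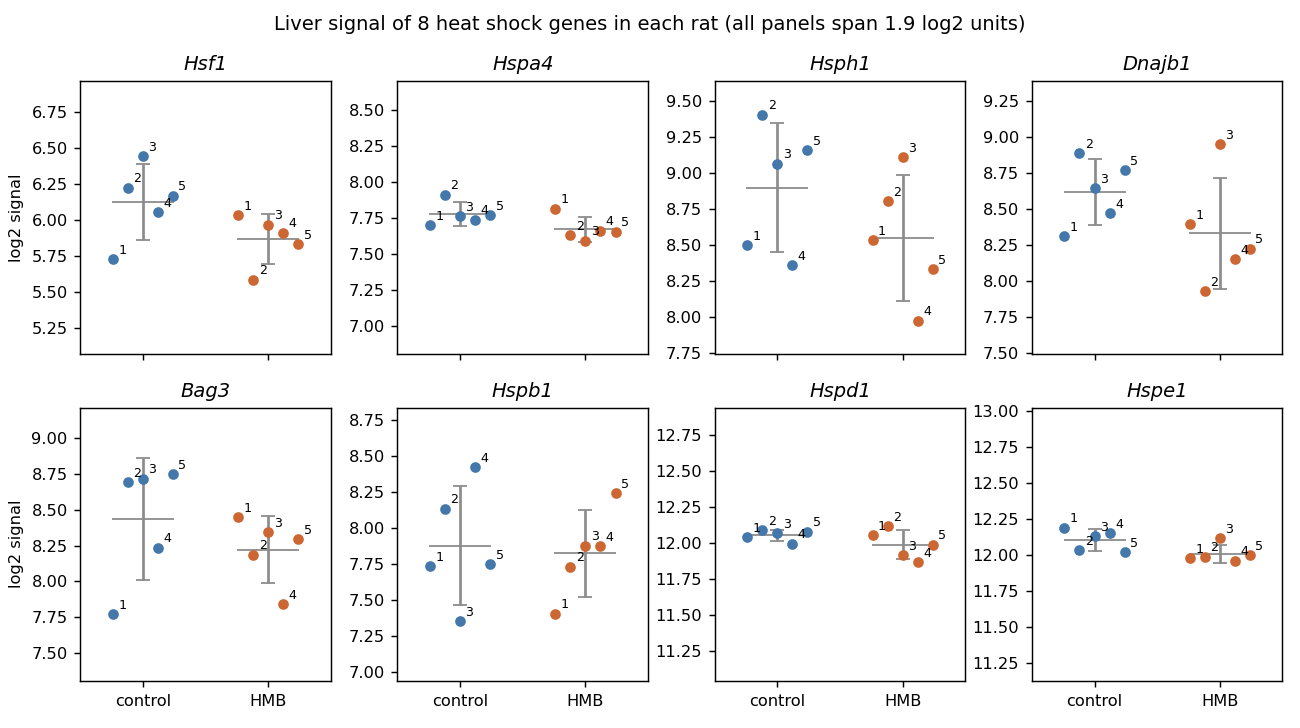
Log2 signal of the brightest probe set of each of the 8 members with a probe set of its own, in 5 control and 5 HMB rats, numbered as in the text. Grey bars are group means and SD, and all panels span the same number of log2 units: Hspa4, Hspd1 and Hspe1 lie close together while Hsph1, Dnajb1, Bag3 and Hspb1 spread widely in both groups.

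The shared probe sets read a pair of genes each. The probe set assigned to both Hspa8 and Haus8l2 was at 12.31, 12.70, 12.55, 12.24 and 12.61 in controls 1 to 5 and at 12.20, 12.34, 12.72, 12.06 and 12.25 in HMB 1 to 5. HMB 3 was again the highest and HMB 4 the lowest, and the difference was -0.17 ± 0.13 (SE over 5 rats in each group, adjusted p in limma = 0.434). Of the 2 probe sets assigned to Hsp90aa1, the stress-inducible cytosolic Hsp90, together with Hsp90aa1-ps17, a pseudogene by its name, the brighter was at 11.45, 11.75, 11.56, 11.34 and 11.65 in controls and at 11.46, 11.36, 11.82, 11.15 and 11.24 in HMB. It differed by -0.14 ± 0.12 (adjusted p = 0.488).

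The dimmer Hsp90aa1 and Hsp90aa1-ps17 probe set was at 10.47, 10.90, 10.50, 10.19 and 10.57 in controls 1 to 5 and at 10.18, 10.09, 9.98, 9.59 and 9.67 in HMB 1 to 5. All 5 HMB rats were below all 5 controls, a pattern seen in 2.93% of all probe sets, bright and dim together. It fell by 0.62 ± 0.14 in log2 units (SE over 5 rats in each group, adjusted p in limma = 0.0488), from 10.53 ± 0.25 (SD, n = 5) to 9.90 ± 0.26. The call was lost after cyclic loess normalization (log2 difference -0.56, adjusted p = 0.0747) and without control 2, 3, 4 or 5 or HMB 2, 3, 4 or 5 (log2 differences from -0.71 to -0.53, adjusted p from 0.0624 to 0.11). Without control 2, 4 or 5 or HMB 4, 0 of all 31042 probe sets passed, and 1 passed without control 3 or HMB 5. With the poly-A spike-in level in the model the difference was -0.45 (adjusted p = 0.384), and with HMB 3 to 5 left out it was -0.39 (adjusted p = 0.454).

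Probe sets of 1 annotation thus differed from each other, and the gaps between them were compared after their values were seen. For Hsp90aa1 and Hsp90aa1-ps17 the brighter minus the dimmer signal was 0.98, 0.86, 1.06, 1.15 and 1.08 in controls 1 to 5 and 1.28, 1.27, 1.84, 1.56 and 1.57 in HMB 1 to 5. All HMB rats were above all controls, by 0.48 on average (exact permutation, two-sided, p = 0.00794, the lowest possible with 252 assignments, adjusted p = 0.0238 over 3 such gaps). The dimmer probe set alone had already separated the groups, so this gap is a description and not separate support for a difference. Gaps of other genes on the array were not computed, so no share stands beside it. For Hsph1 the gap was 2.15 to 2.38 in controls and 2.03, 2.16, 2.93, 2.74 and 3.04 in HMB 1 to 5 (exact two-sided permutation p = 0.167, adjusted p = 0.25), so that HMB 3 to 5 were above all controls and HMB 1 below them. For Dnajb1 it was 1.37 to 1.496 in controls and 1.23, 0.92, 1.86, 1.51 and 1.59 in HMB 1 to 5 (exact two-sided permutation p = 0.873, adjusted p = 0.873), with HMB 3 to 5 above all controls and HMB 1 and 2 below them.

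HMB 3 to 5 also lay outside the controls in some control signals of the arrays. The 3′ minus 5′ signal of GAPDH, which is larger where RNA or its copies are shorter at the 5′ end, was 1.38 to 1.77 in controls, 1.31 and 1.38 in HMB 1 and 2, and 1.97, 2.09 and 1.897 in HMB 3 to 5. The signal of the poly-A spike-in transcripts, minus that of the hybridisation controls, was -2.19 to -1.901 in controls, -1.92 and -1.96 in HMB 1 and 2, and -1.54, -1.78 and -1.47 in HMB 3 to 5. The 3′ minus 5′ signal of actin was 3.26 to 3.64 in controls, 3.16 and 3.18 in HMB 1 and 2, and 3.62, 3.96 and 3.58 in HMB 3 to 5, so that HMB 4 alone was above the controls there. For the Hsp90aa1 and Hsp90aa1-ps17 probe sets, HMB 1 and 2 also had gaps above every control, though their GAPDH values were below every control and their poly-A values within the control range. The SD of all log2 values was 2.434 to 2.495 on the control arrays. It was 2.431, 2.426, 2.377, 2.385 and 2.382 in HMB 1 to 5, so that every HMB array was below every control. With the poly-A level in the model, the difference was -0.29 for the dimmer and -0.44 for the brighter Hsph1 probe set. For Dnajb1 it was -0.17 for the dimmer and -0.56 for the brighter. In that fit 0 of all 31042 probe sets passed. Beyond it, the part of these array measures in the differences was not tested. Without HMB 1 and 2 the dimmer Hsph1 probe set differed by -1.07 (limma adjusted p = 0.0552), and without HMB 3 to 5 by -0.06 (adjusted p = 0.96).

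**Figure D4:**
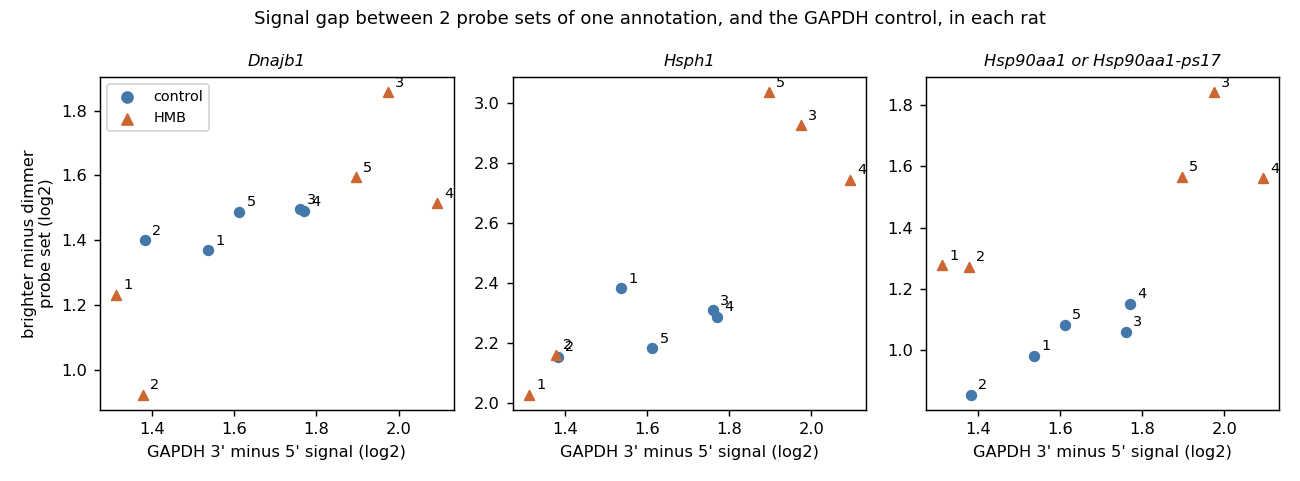
Brighter minus dimmer probe set of Dnajb1, Hsph1 and of Hsp90aa1 with Hsp90aa1-ps17, in log2 units on the y axes, against the GAPDH 3′ minus 5′ signal of the same array on the x axes, in 5 control rats (circles) and 5 HMB rats (triangles). HMB 3 to 5 lie at the upper right in all panels, with GAPDH values of 1.897 to 2.09.

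The rats within a group were then compared. Measured as the deviation of each rat from its group mean, Hsph1 was 0.51 above in control 2, 0.54 below in control 4, 0.56 above in HMB 3 and 0.58 below in HMB 4. None of the 28 pairs of members passed by Pearson r (exact two-sided permutation within groups, smallest adjusted p = 0.258) or by Spearman rho (smallest adjusted p = 0.142). By Pearson r, 5 pairs had an unadjusted p under 0.05. The 5 pairs all joined Hsph1, Dnajb1, Bag3 and Hsf1, with Pearson r from 0.60 to 0.73 over 10 rats. The remaining pair of these genes, Hsf1 and Hsph1, had r = 0.35 (exact permutation p = 0.362, adjusted p = 0.708), and r = -0.12 within HMB. The share of gene pairs in general with an unadjusted p under 0.05 was not computed. The smallest p by rho was that of Hspa4 and Hspe1, an inverse pair outside these genes. It had rho = -0.83 (exact permutation p = 0.00674, adjusted p = 0.142) and r = -0.66 (p = 0.0555, adjusted p = 0.259), and r = -0.49 after cyclic loess. Bag3 and Hsf1 had r = 0.73 (exact permutation p = 0.0364, adjusted p = 0.258) and Spearman rho = 0.69 (p = 0.0643, adjusted p = 0.300), and r = 0.71 without control 1 and HMB 4, the rats farthest from the median. Without control 1 alone r was 0.43, and it was 0.91 within controls and 0.25 within HMB. Among 9501 genes ordered by r with Bag3, Hsf1 stood 795th and Hsph1 797th, so that many other genes were closer to Bag3 than these members were. Hspd1 and Hspe1, which share their promoter region, had r = -0.35 (exact permutation p = 0.35, adjusted p = 0.708) and rho = -0.47 (p = 0.162, adjusted p = 0.454), and r = -0.79 without HMB 2 and HMB 4, but with each rat left out in turn r ran from -0.70 without HMB 4 to -0.16 without HMB 3.

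With the 3 shared probe sets added, a choice made after their values were seen, 3 of 55 pairs passed. The pairs that passed join the same 3 probe sets with each other, so they are not separate results. The adjustment covered the 55 pairs only, and the share of other gene pairs that would pass was not computed. Hsph1 and the Hspa8 and Haus8l2 probe set had r = 0.95 (exact two-sided permutation within groups, p = 0.000278, adjusted p = 0.0153) and rho = 0.98 (p = 0.000278, adjusted p = 0.0153). The value was 0.95 without control 2 and HMB 3, 0.94 after cyclic loess, and 0.94 to 0.97 with each rat left out in turn. It was 0.999 among the 5 controls and 0.91 among the 5 HMB rats, and 0.999 without HMB 3 to 5 and 0.99 without HMB 1 and 2. Hsph1 and the brighter Hsp90aa1 and Hsp90aa1-ps17 probe set had r = 0.90 (exact permutation p = 0.000972, adjusted p = 0.0216) and rho = 0.94 (p = 0.00104, adjusted p = 0.0286), and r = 0.88 without HMB 3 and HMB 4 and 0.89 without HMB 3 to 5. The third pair joined these shared probe sets with each other, at r = 0.93 (exact permutation p = 0.00118, adjusted p = 0.0216) and rho = 0.90 (p = 0.00257, adjusted p = 0.0471), and r = 0.79 without control 2 and HMB 3 and 0.88 without HMB 3 to 5.

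**Figure D5:**
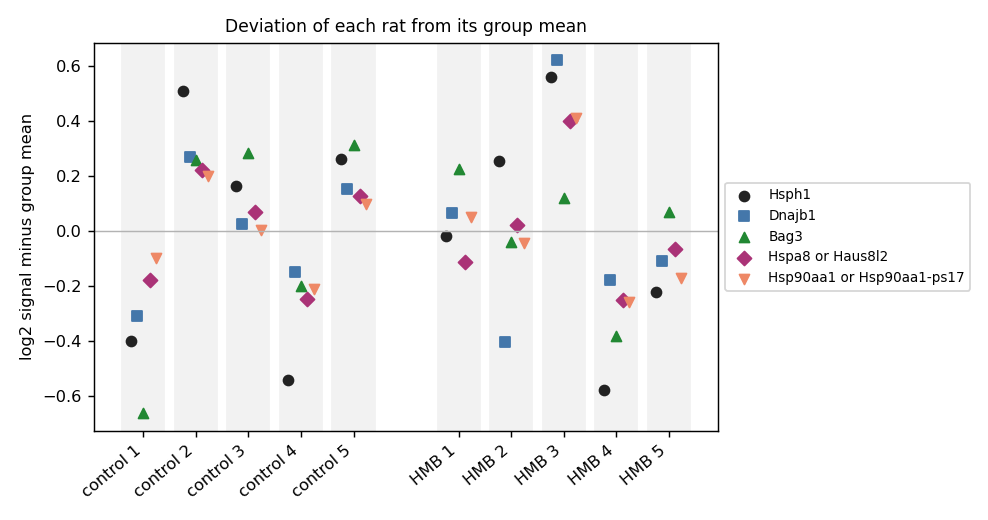
Log2 signal minus the group mean in each rat (y axis) for Hsph1, Dnajb1, Bag3 and 2 shared probe sets, the brighter one in the case of Hsp90aa1. Hsph1 and both shared probe sets are high in control 2 and HMB 3 and low in control 4 and HMB 4, while Dnajb1 is low in HMB 2 and Bag3 is lowest in control 1.

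The 3 members with the widest spread within groups, Hsph1, Hspb1 and Bag3, were set against 9501 other genes with a mean level above the median, by Pearson r of the deviations over 10 rats. The genes most like Hsph1 were Mrps18b at 0.96, a protein of the mitochondrial ribosome, Stip1 at 0.95, the adaptor that links Hsp70 to Hsp90, and Sf1 at 0.93, a splicing factor. For Hsph1, 1.33% of genes were above 0.8. The genes most like Bag3 were Eif2b1, Afg2a and Btaf1, each between 0.98 and 0.99, and 5.19% of genes were above 0.8 there. Hspb1 was most like Ndufs4, a respiratory chain subunit, at 0.95, Plekhh3 at 0.93 and Pamr1 at 0.92, with 0.442% above 0.8. These correlations come from few rats and share the arrays, and the nearest genes are a description.

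Of 113 other chaperone genes measured, out of 120 listed, 1 fell in HMB and the others did not pass (limma, adjusted over all probe sets), where 1.62% of all genes by their brightest probe set passed. At an unadjusted p under 0.05 stood 28 of 113, where 24.0% of all genes did. The median log2 difference was -0.11, with 82 below 0, where 53.5% of all genes were, and 31 above, and after cyclic loess the median was -0.02, with 66 below 0. All 82 lay among the 103 of these genes above the median level, where 68.9% of all genes of such levels were below 0. The gene that fell was Dnajb14, a membrane-bound J-domain protein, by 0.57 ± 0.13 (SE over 5 rats in each group, adjusted p in limma = 0.0490). For Dnajb14, that call was lost after cyclic loess (-0.49, adjusted p = 0.0871), with HMB 1 counted as a control (-0.52, adjusted p = 0.0774), with the poly-A covariate (-0.57, adjusted p = 0.299), with HMB 3 to 5 left out (-0.46, adjusted p = 0.325), and without control 2, 3, 4 or 5 or HMB 2, 3, 4 or 5 (adjusted p from 0.0643 to 0.114).

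By class, the cytosolic and nuclear J-domain proteins had 20 of 22 below 0 and a median of -0.12, with Dnajc7 at -0.28 (limma adjusted p = 0.0801), Dnajc21 at -0.26 and Dnajb2 at -0.23. Nucleotide exchange and Hsp70 regulators had 7 of 7 below 0 and a median of -0.16, with Bag5 at -0.39 (adjusted p = 0.0574), Bag4 at -0.20, Bag1 at -0.16 and Hspbp1 at -0.14. Hsp90 and its cochaperones had 13 of 17 below 0 and a median of -0.14, with the phosphatase Ppp5c at -0.34 (adjusted p = 0.0575), the cyclophilin Ppid at -0.28, Ttc4 at -0.23 and the myosin chaperone Unc45a at -0.15. All members of these 3 classes lay above the median level. All 5 HMB rats were below all controls for Ppp5c, Ppid and Unc45a. Among the 113 genes the same held for Dnajb14, Cryab, Grpel2, Pfdn6, Dnajc3 and Canx, where 2.93% of all probe sets showed it. All of these genes lay above the median level, where more genes were below 0. The share with this pattern was not computed for such levels alone, so the list cannot be set against a matched share.

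TRiC, the cytosolic folding chamber, and prefoldin, which feeds it, had 13 of 13 below 0 and a median of -0.11, with Pfdn4 at -0.33 (limma adjusted p = 0.0900), Pfdn5 at -0.23, Cct4 at -0.20 and Pfdn6 at -0.15. Endoplasmic reticulum chaperones had 12 of 14 below 0 and a median of -0.14, with Dnajb11 at -0.28, Sdf2l1 at -0.25, Calr at -0.18 and Dnajc3 at -0.16. In mitochondria 10 of 16 were below 0 with a median of -0.01, and the exchange factor Grpel2 at -0.31 (adjusted p = 0.0769), Hscb at -0.18 and Htra2 at -0.15 stood beside Clpx, an unfoldase, at 0.26. All genes of these classes lay above the median level, where 68.9% of all genes were below 0.

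The small heat shock proteins had 2 of 8 below 0 and a median of 0.11. Only 4 of the 8 lay above the median level, with 2 of these below 0 and a median of 0.04. Among the 8, Cryab, the alpha-B crystallin, had the largest difference of all other chaperone genes, -0.81 ± 0.21 (SE over 5 rats in each group, adjusted p in limma = 0.0644). All 5 HMB rats were below all controls for Cryab, while Hspb7 was at 0.31, Hspb3 at 0.16 and Hspb9 at 0.11. The list of further Hsp70 genes also counted Hspbap1, at -0.03, which is not itself an Hsp70 gene. It had 3 of 9 below 0 and a median of 0.15, with Hspa14 at -0.32, Hspa2 at 0.25, Hspa12a at 0.22 and Hspa1l at 0.15. Of these 9, 5 were below the median level, among them Hspa2, Hspa12a and Hspa1l, and the 4 above it had a median of -0.05. No detection call was used, so these 3 and the dim Hspb3 and Hspb9 may not be above background. The inducible Hspa1a was at 5.98 ± 0.34 (SD, n = 5) in controls and 6.23 ± 0.54 in HMB (adjusted p = 0.527). It was looked up as the textbook Hsf1 target and lies outside the naming rule. Hsf1 relatives and regulators had 2 of 7 below 0 and a median of 0.04, with Dedd2 at -0.36, Hsbp1, a negative regulator of Hsf1, at -0.20, Cacybp at 0.19 and Hsf4 at 0.15.

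Across rats, 11 of the 113 had a Pearson r above 0.8 with Hsph1 over 10 rats, and the median r was 0.29. Stip1 stood among them at 0.95. The classes with the highest median r were TRiC and prefoldin at 0.54, endoplasmic reticulum chaperones at 0.46 and Hsp90 with its cochaperones at 0.40, while Hsf1 relatives were at -0.14. In the promoter table, 17 of 96 of these genes, or 17.7%, held an inverted pair of units and 1 held 3 in a row, Serpinh1, a collagen chaperone with a log2 difference of -0.19 (limma adjusted p = 0.504) and r = -0.02 with Hsph1.

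Liver markers were bright, with 7 hepatocyte genes averaging 12.49 to 12.71 in controls and 12.44 to 12.59 in HMB, and 6 of the 7 below 0. Of 35 marker genes of 8 cell types 0 passed (limma), where 1.62% of all genes by their brightest probe set did. At an unadjusted p under 0.05 stood 6 of the 35, where 24.0% of all genes did. Kupffer cell and macrophage markers, 5 measured of 7 listed, averaged 6.39 to 8.25 over controls and 7.13 to 7.86 over HMB. Smooth muscle markers, whose cells hold much Hspb1 and Cryab, averaged 3.58 to 4.01 in controls and 3.72 to 3.95 in HMB, with 2 of 4 below 0 and 2 above, Myh11 at 0.44 and Acta2 at 0.31 having the smallest p. The 2 below 0 were Tagln at -0.39 and Cnn1 at -0.02, and of the 4 only Tagln lay above the median level. Of 3 erythroid genes all were above 0, with Slc4a1 at 0.39 and Alas2 at 0.40. Slc4a1, Alas2, Myh11 and Acta2 were all below the median level and, with no detection call used, may not be above background. Among 13 immediate early genes, which respond within minutes to handling or stress, 0 passed and 4 had an unadjusted p under 0.05, beside the same shares of all genes. Jun was at -0.55 and Egr1 at 1.29. Their part in the chaperone values was not tested.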

How the data were processed

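Liver RNA of 10 rats, 5 HMB and 5 control by title, was read on Affymetrix Rat Genome expression arrays. The deposited values are log2 signals per probe set, made by the authors with RMA per the submitters' processing notes, with no version. They were used as deposited, without a filter on low signals. Of 31099 probe sets, 57 were Affymetrix controls and 31042 were tested. Of these, 20826 name 1 gene, 436 several and 9780 none. No raw intensities, detection calls, slides or dates were used here. Rats were housed 5 per cage, so cage and group may coincide and then cannot be told apart. Nothing in the labels ties animals across groups.

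Tests used limma 3.58.1 in R 4.3.3 (lmFit, eBayes, HMB minus control, 8 residual degrees of freedom) with Benjamini-Hochberg adjustment over all probe sets and a threshold of 0.05. A listed gene was read by its brightest probe set. Correlations used deviations from group means and all 14400 reorderings within groups. Genes named from lists are those called and the 4 with the smallest p per chaperone list. For marker lists, up to 2 are named, and for smooth muscle all 4. No 2 arrays were identical in any of 45 pairs. With 5 rats per group, their number limits precision. The members and lists were chosen with earlier results of these data known. Figures used matplotlib 3.10.9 in Python 3.11.15.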

Additional observations from a re-analysis of the deposited data

Results flagged for a closer look

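In each group of 5 rats, the highest and lowest value of every member probe set were compared with the others by the gap to the nearest rat as a share of the range. Of 20 such groups 1 exceeded the limit of 0.71, where chance gives about 1 in 20. Hspe1 in HMB 3 was at 12.118, against 11.96 to 12.00 in the other 4 HMB rats (gap share 0.747), and lay within the range of the controls.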

How the results depend on the processing

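No member probe set passed in any of the 21 other settings of the limma fit, which included each rat left out in turn, HMB 1 counted as a control, HMB 3 to 5 or HMB 1 and 2 left out, and an adjusted p of 0.1 as the threshold. These counts carry little where nothing passed in the whole series: 0 of 31042 probe sets did with the poly-A covariate, with HMB 3 to 5 left out, and without control 2, 4 or 5 or HMB 4, and 1 did without control 3 or HMB 5, against 2094 without HMB 1 and 2. Between 0 and 4 of the 10 were at an unadjusted p under 0.05. The smallest adjusted p of a member over these settings was 0.0552, for the dimmer Hsph1 probe set without HMB 1 and 2. Hspb1 changed sign in 6 settings and Hspa4 and Hspd1 in 1 each, with no call. The number of other chaperone genes called, 1 at first, was 0 after cyclic loess, with the poly-A covariate, with HMB 1 counted as control and with HMB 3 to 5 left out, 2 with array weights, 3 with the lowest 50% of levels left out or without HMB 1 and 2, 4 with arrays at the same median, 8 at an adjusted p of 0.1, and 0 to 3 with each rat left out in turn. At each setting with a count of 0, the unadjusted p was under 0.05 in 13 to 35 of these genes. The number of member pairs that passed, 0 at first, was 0 or 1 with each rat left out. It was 1 without HMB 2 (Dnajb1 and Hsph1, exact permutation adjusted p = 0.0292), 1 without HMB 3 (Hspd1 and Hsph1, adjusted p = 0.00972), and 1 with the dimmest probe set per gene (Dnajb1 and Hsph1, adjusted p = 0.0467). The cause of these changes was not tested. No paired analysis was possible because the replicate numbers follow the order of deposition and pair no animals.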
